A study of Bos taurus with 16 samples.

Results

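Bovine embryonic stem cell (bESC) libraries carried the number 2 or the number 3 in their names, and the libraries of number 3 were compared with those of number 2 over all genes. Of the 16 libraries of the series, 4 were made from bESCs, 2 for each number. Within a number, 1 library came from cells kept in tifx, the culture medium of these cells, and 1 from cells given LY2955303 (LY), an inhibitor of retinoic acid receptor gamma. All 4 libraries were labelled as wild type and as batch 1. The dose and duration of LY in these cells stand in the text of the study and not in the labels. The labels do not say whether the numbers stand for different lines, cultures or passages. Per the text of the study, the lines came from the inner cell mass of Holstein blastocysts produced in vitro. They grew on inactivated mouse embryonic fibroblasts. Their medium held inhibitors of MEK, DOT1L, FGF receptors and GSK3, the tankyrase inhibitor IWR-1, forskolin and leukemia inhibitory factor. Because each number held 1 tifx and 1 LY library, treatment was balanced between the numbers, and the spread within a number included whatever LY changed. The p-values measure only the spread between these libraries, which may be technical.

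HOX genes encode homeodomain transcription factors that lie in 4 clusters and set position along the body axis. They are little transcribed in the early epiblast and are switched on as the posterior embryo forms. Retinoic acid, CDX factors, and Wnt and FGF signals are among their known regulators. Wnt ligands act through Frizzled receptors and beta-catenin, and several Wnt target genes encode inhibitors of the same pathway. Glycolytic enzymes break glucose down to pyruvate, and many of their genes are targets of the hypoxia-inducible factor. The integrated stress response acts through the transcription factor ATF4, which drives genes for amino acid synthesis and uptake.

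Between 29055323 and 31230432 reads fell on genes in each library. Values below are normalized counts, which are reads scaled to 1 common library size, with tifx given before LY within a number unless stated otherwise. Where both libraries of a number had 0 reads for a gene, its fold was set against 3 reads over both libraries together, which covers counting error only. The labelled cell type was checked on FPKM, a level scaled to gene length and library depth. POU5F1 stood at 967 to 1117 FPKM over the 4 libraries, LIN28A at 843 to 960 and DNMT3B at 322 to 423, so defining pluripotency genes were abundant in both numbers. NANOG was at 36.3 to 53.8 FPKM. The trophoblast genes IFNT2, PAG2 and PAG11 had 0 reads in every library, and the hypoblast genes GATA4, GATA6 and SOX17 stayed at or under 0.386 FPKM. Other markers of these lineages were present, with KRT8 at 60.4 to 209 FPKM, KRT18 at 16.8 to 85.6, CDX2 at 0.243 to 15.2, PDGFRA at 1.63 to 2.69 and FOXA2 at 1.59 to 3.26. COL1A1, a fibroblast collagen, was at 45.8 to 54.7 FPKM, while POSTN and DCN stayed at or under 0.284 FPKM. SOX2 and XIST were not analysed here.

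The libraries grouped by number and not by treatment. Across the 2 libraries of 1 number, 644 genes (number 2) and 526 genes (number 3) differed by more than 2-fold, against 2250 to 2346 genes for a library of number 2 and a library of number 3. The squared difference of reads over its counting expectation averaged 7.50 and 5.90 per gene within a number and 108 to 116 between numbers, so no library was a second deposit of another. The first principal component held 80.4% of the variance and placed the number 2 libraries at -52.4 and -55.0 and the number 3 libraries at 53.4 and 54.0.

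At a mean of 10 or more normalized counts 16012 genes were tested, of which 1030 were higher in number 3 (6.43% of those tested) and 836 were lower (5.22%). The threshold was that of the study, an unadjusted p under 0.05 and a difference of more than 2-fold. It was applied here to limma results, while the study used DESeq2. Higher and lower are used in this sense throughout, and log2 differences are number 3 minus number 2. Because the filter uses the mean over all libraries, it kept some genes only through the number where they are high. Counts of list members below are therefore descriptions. With Benjamini-Hochberg adjustment over the 16012 genes, 7464 (46.6%) had an adjusted p under 0.05, with 3727 above 0 and 3737 below 0. The median over all tested genes was -0.003 on the log2 scale. Among the genes past the threshold, 107 were higher and 83 were lower by at least 8-fold. With the same test, 12 genes passed the threshold between tifx and LY, and 146 did so once the number was a term of the fit.

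The same contrast was read within each treatment. The tifx pair (tifx of number 3 against tifx of number 2) and the LY pair share no library, and their log2 differences correlated across the 16012 genes with a Pearson r of 0.789, which was 0.938 over the 10814 genes with a mean of at least 200. Genes are not independent replicates, so this r is a description. At least a 2-fold difference was seen in both pairs for 770 genes upwards and 633 genes downwards, and in opposite directions for 39. Of the 1866 genes past the threshold, 4 had opposite signs in the pairs. The scatter of the pairs shows the HOX genes in the upper right corner, the glycolysis genes below 0 along the diagonal, and the integrated stress response genes below the diagonal.

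**Figure D1:**
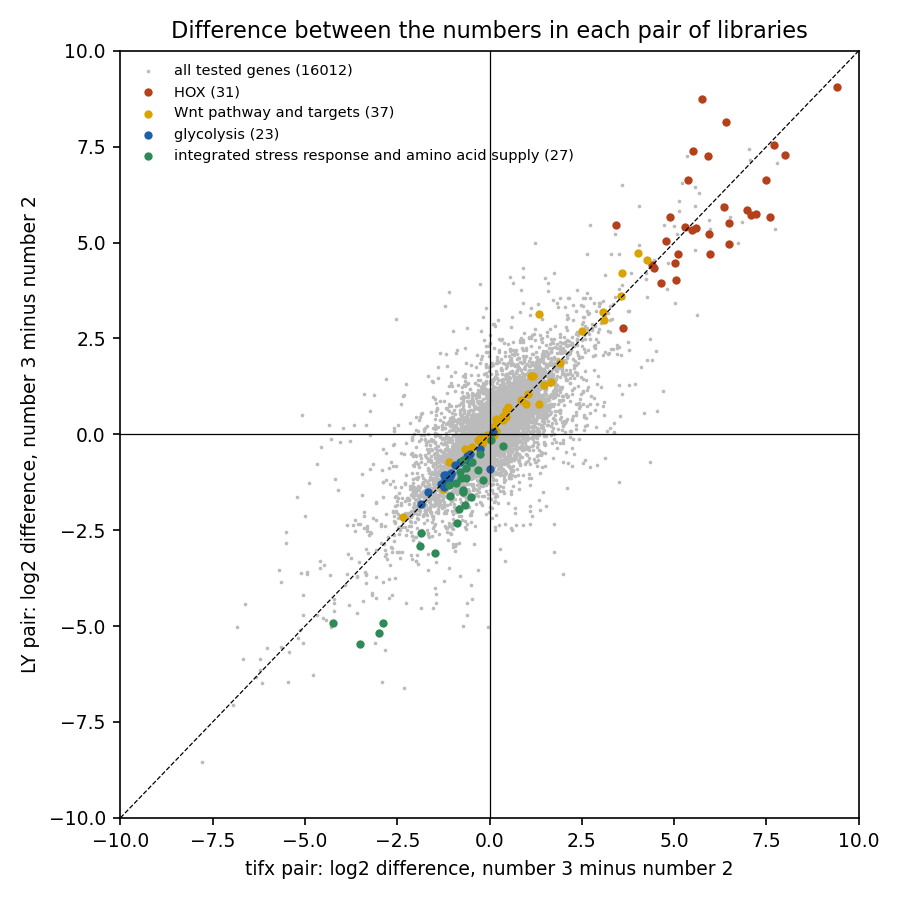
Log2 difference between number 3 and number 2 for every tested gene, in the tifx pair (horizontal axis) and the LY pair (vertical axis), on log2(normalized count + 1). Grey points are the 16012 tested genes, colours mark 4 gene lists, and the dashed line marks equal differences. All 31 tested HOX genes lie above 0 in both pairs.

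The HOX list had the largest median difference of the 38 gene lists. All 39 HOX genes on the list were found in the table, 31 were tested, and 31 of 31 were higher in number 3 while 0 were lower, against 6.43% of all tested genes. The filter kept some of them only through their level in number 3, so this count is a description. The median log2 difference over the 31 was 5.71, and it was 5.75 in the tifx pair and 5.51 in the LY pair. All 39 genes together held 1019 reads in number 2 and 56304 reads in number 3. The 8 untested members, which include HOXA13, HOXB13 and HOXD10 to HOXD13, held 9 reads in number 2 and 88 in number 3.

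All 4 clusters took part. The median log2 difference was 6.60 over 10 tested HOXA genes, 5.40 over 9 HOXB genes, 4.90 over 7 HOXC genes and 5.59 over 5 HOXD genes. HOXB3 was at 20.6 and 41.3 in number 2 and 2734 and 2414 in number 3 (log2 difference 6.41). HOXB9 was at 81.4 and 80.5 in number 2 and 2264 and 2661 in number 3 (log2 difference 4.91, standard error 0.13, adjusted p = 3.25e-14 from limma). HOXC6 was at 65.9 and 106 in number 2 and 3251 and 4434 in number 3 (log2 difference 5.49) and had the highest level per length of the family, 40.4 and 55.1 FPKM in number 3 against 0.905 and 1.32 FPKM in number 2.

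Members as far toward the 5′ end as HOXA11 and HOXC11 took part as well as those toward the 3′ end. The genes at the 5′ ends themselves, among them HOXA13, HOXB13, HOXC13 and HOXD10 to HOXD13, were not tested. HOXA9 was at 15.5 and 4.23 in number 2 and 1384 and 1474 in number 3. HOXA10 stood at 421 and 582 in number 3 against 1.03 and 2.12 in number 2. HOXC10 was at 20.6 and 11.6 in number 2 and 888 and 1246 in number 3. All 3 belong to the genes that act late and far back in the body. In the middle of its cluster, HOXB5 had 254 and 317 in number 3 against 0 and 1.06 in number 2. The smallest difference of the family was that of HOXD8, at 2.06 and 3.18 in number 2 and 36.4 and 27.7 in number 3 (log2 difference 3.20). For 31 of 31 tested HOX genes the numbers did not overlap, against 73.8% of all tested genes. In number 2 the LY library was above the tifx library for 20 of the 31 genes and in number 3 for 18.

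Other gene models inside the clusters moved in the same direction. Between the first and the last HOX gene of each cluster, 12 other models were tested and 12 were higher, against 6.43% of all tested genes. Tested were 8 of 14 models in HOXA (chromosome 4) and 2 of 7 in HOXB (chromosome 19 from 37792302 to 37959268). In HOXC (chromosome 5 from 25977799 to 26093573) it was 1 of 9, and in HOXD (chromosome 2 from 20724272 to 20820662) 1 of 2. The other models were under the filter. Some of the 12 passed it only through their level in number 3, so this count is a description. Overlapping and antisense transcripts share reads where counting ignores strand, so these models and their HOX neighbours cannot be fully told apart. ENSBTAG00000048562 and ENSBTAG00000048509, both in the HOXA interval, had 0 reads in number 2 and 77.6 and 62.2, and 60.4 and 46.9, in number 3. The genome build behind these positions is not given in the sources used here.

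**Figure D2:**
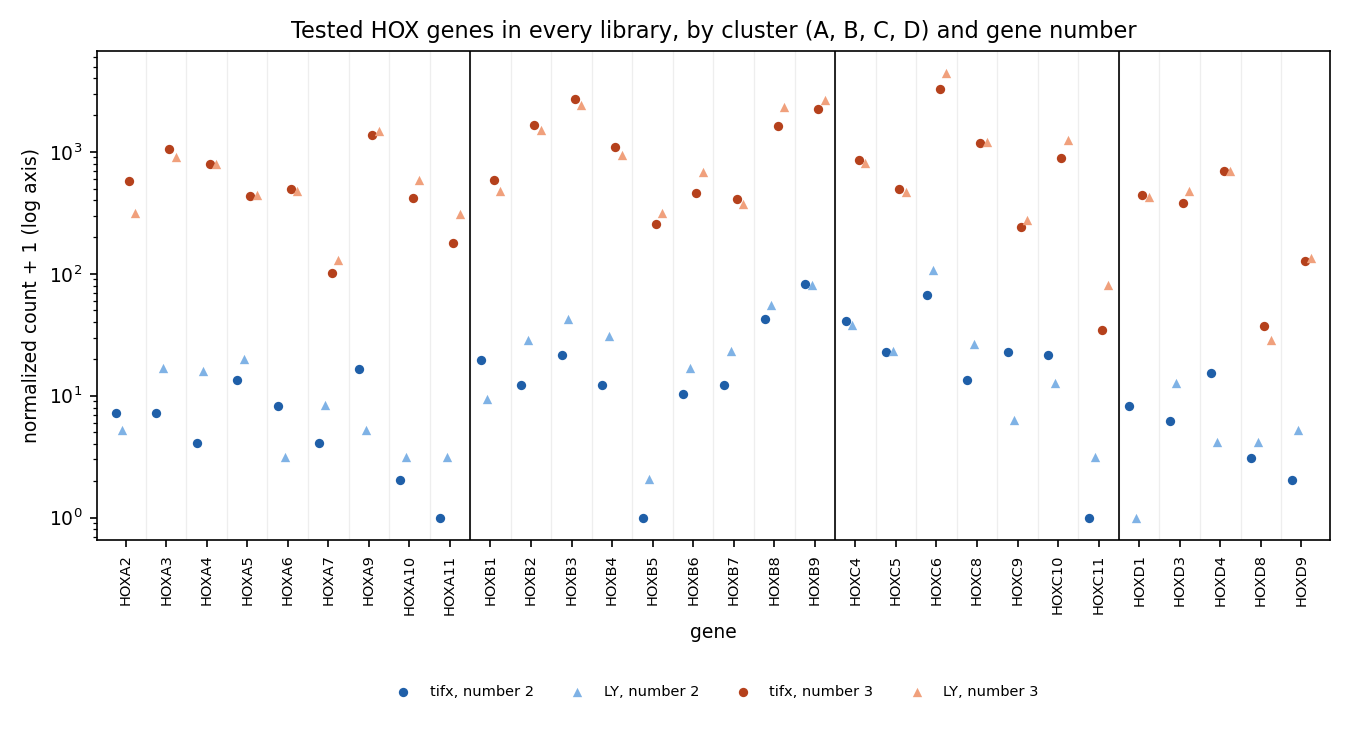
Normalized count plus 1 (log axis) of 30 of the 31 tested HOX genes in each of the 4 libraries, ordered by cluster and gene number, with black lines between clusters. Blue marks number 2, orange marks number 3, circles are tifx and triangles are LY. For each gene drawn both libraries of number 3 lie above both libraries of number 2.

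CDX2 was also higher. This gene encodes a caudal homeobox factor that also marks trophectoderm, and it was at 14.4 and 9.53 in number 2 and 539 and 597 in number 3 (log2 difference 5.48, standard error 0.29, adjusted p = 1.48e-10 from limma). Its relatives and HOX cofactors were looked at after their values were seen. CDX1 was at 2.06 and 2.12 in number 2 and 33.5 and 80.4 in number 3 (log2 difference 4.10). CDX4 stood at 2320.2 and 2930.1 in number 3 against 592 and 674 in number 2 (log2 difference 2.04), so it was present in both numbers. MEIS2, a HOX cofactor, was at 861 and 681 in number 2 and 3188 and 2240.4 in number 3 (log2 difference 1.80). Its relative MEIS1 had 64.2 and 66.01 in number 3 against 119.5 and 122 in number 2 (log2 difference -0.88), which did not reach 2-fold. GREM1, a secreted BMP antagonist, was at 23.7 and 20.1 in number 2 and 654 and 934 in number 3 (log2 difference 5.10). For CDX2 and GREM1, every library of number 3 lay more than 10-fold above every library of number 2.

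Among the Wnt pathway and its targets, 15 of 37 tested genes were higher in number 3 and 2 were lower, against 6.43% and 5.22% of all tested genes, with a median log2 difference of 0.54. The filter kept DKK1 only through its level in number 3, so this count is a description. At a minimum mean of 50, 13 of 35 were higher and 2 were lower. FZD10, a Frizzled receptor on chromosome 17 from 46932749 to 46934705, was at 1849 and 1797 in number 2 and 15558 and 16539.7 in number 3 (log2 difference 3.14, standard error 0.06, adjusted p = 3.84e-16 from limma). WLS, the carrier that brings Wnt ligands to the cell surface, was at 473 and 447 in number 2 and 4412 and 4042 in number 3 (log2 difference 3.20, standard error 0.08, adjusted p = 2.29e-14 from limma). Ligand genes were among the higher ones. WNT4 stood at 552 and 502 in number 3 against 32.97 and 17.996 in number 2. WNT8A was at 157 and 187 in number 2 and 1354 and 1489 in number 3. WNT5A and WNT11 had smaller log2 differences of 1.35 and 2.24. The Wnt-responsive transcription factor SP5 was at 94.8 and 71.98 in number 2 and 1846 and 1695 in number 3 (log2 difference 4.40).

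Feedback inhibitors of the Wnt pathway were part of the higher group. NKD1 was at 211 and 222 in number 2 and 2491 and 2729 in number 3 (log2 difference 3.58, standard error 0.10, adjusted p = 9.13e-14 from limma). AXIN2, a scaffold of the complex that degrades beta-catenin, stood at 3383 and 3179.8 in number 3 against 905 and 876 in number 2 (log2 difference 1.88). DKK1, a secreted inhibitor, was at 3.09 and 4.23 in number 2 and 47.9 and 94.7 in number 3 (log2 difference 3.89). NOTUM, RNF43 and ZNRF3, which act on Wnt ligands or receptors, were higher by 1.38, 1.06 and 1.04 on the log2 scale. The nuclear partners of beta-catenin LEF1 and TCF7 were also higher. LEF1 had 1323 and 1312 in number 3 against 232 and 202 in number 2. TCF7 was at 684 and 723 in number 2 and 2185 and 1850.1 in number 3. The 2 lower genes were secreted antagonists. SFRP1 was at 8759 and 8059.9 in number 2 and 1734 and 1799 in number 3 (log2 difference -2.25, standard error 0.06, adjusted p = 5.86e-14 from limma). SFRP5 stood at 37.4 and 33.5 in number 3 against 90.7 and 92.1 in number 2. The count stayed at 13 to 15 higher and 2 or 3 lower under the 15 alternatives. RNF43 missed 2-fold without the tifx library of number 2 or of number 3, at 0.95 and 0.90.

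Of 24 tested pluripotency genes 4 were higher and 3 lower, against 6.43% and 5.22% of all tested genes, with a median of 0.04. POU5F1 was at 35934 and 36959.9 in number 2 and 31988 and 33473 in number 3 (log2 difference -0.16, adjusted p = 0.00771 from limma). NANOG stood at 1919.6 and 1799 in number 3 against 2668 and 2169 in number 2 (log2 difference -0.37, adjusted p = 0.0025 from limma). Both log2 differences were below 0 by far less than 2-fold, and the sign for POU5F1 turned under quantile normalization. The 3 lower members were OTX2, DPPA3 and TDGF1. OTX2, an anterior homeobox factor, was at 1630.1 and 1187 in number 2 and 166 and 137 in number 3 (log2 difference -3.20, standard error 0.16, adjusted p = 5.88e-11 from limma). DPPA3, a maternal and germ line factor, stood at 8.62 and 3.83 in number 3 against 58.7 and 86.8 in number 2. TDGF1, the Nodal coreceptor, was at 83.5 and 109 in number 2 and 21.1 and 22.96 in number 3. The 4 higher members were TBX3, KLF5, ZIC2 and TERT. TBX3 stood at 139.9 and 136 in number 3 against 21.6 and 13.8 in number 2. KLF5 was at 427 and 339.8 in number 2 and 965 and 963 in number 3. ZIC2 had 9188 and 8775 in number 3 against 4566 and 3936 in number 2. The catalytic subunit of telomerase is encoded by TERT, which was at 298 and 232 in number 2 and 591 and 538 in number 3. Without the LY library of number 2, ZIC2 and TERT missed 2-fold, at 0.98 and 0.92.

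Neural and surface ectoderm genes were higher for 7 of 15 tested and lower for 1, against 6.43% and 5.22% of all tested genes, with a median of 0.76. The filter kept some of them, such as NEUROG2 and PAX6, only through their level in number 3, so this count is a description. At a minimum mean of 50, 5 of 11 were higher and 1 was lower. The proneural factor NEUROG2 had 0 reads in number 2 and 131.3 and 141.6 normalized counts in number 3, at least 87.1-fold higher against 3 reads over number 2. The growth cone gene GAP43 was at 36.1 and 45.5 in number 2 and 455 and 546 in number 3. ELAVL3, a neuronal RNA-binding protein gene, stood at 1536 and 1587 in number 3 against 529.6 and 535 in number 2. CDH2, the neural cadherin, was at 3732 and 3704 in number 2 and 8339 and 7479 in number 3. One LIM homeobox gene went the other way. LHX5 stood at 50.8 and 60.3 in number 3 against 304 and 222 in number 2 (log2 difference -2.21). PAX6 was low in all libraries, at 2.06 and 0 in number 2 and 18.2 and 24.9 in number 3. NES had 16719 and 19084 in number 3 against 15406 and 14752 in number 2 (log2 difference 0.24), which did not reach 2-fold.

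Among primitive streak and mesoderm genes 5 of 17 were higher and 1 lower, against 6.43% and 5.22% of all tested genes, with a median of 0.53. The pairs were unequal, with a median of 0.15 in the tifx pair and 0.72 in the LY pair. TWIST1, a mesenchymal transcription factor, was at 57.7 and 49.8 in number 2 and 596 and 529 in number 3. FGF8 stood at 105 and 159.8 in number 3 against 40.2 and 46.6 in number 2. TBXT (brachyury), the marker of the early streak, was at 63.9 and 38.1 in number 2 and 98.7 and 166 in number 3. In all 3 the libraries of number 3 lay above those of number 2. The lower gene was SNAI2, at 90.7 and 61.4 in number 2 and 39.3 and 10.5 in number 3. SNAI2 did not pass the threshold without the tifx library of number 2 (-1.53) or the LY library of number 3 (-0.91). TBXT came to 0.99 without the LY library of number 2 and to 0.98 without that of number 3.

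Markers of the extraembryonic lineages were split. Of 17 tested trophectoderm genes 4 were higher and 5 lower, against 6.43% and 5.22% of all tested genes. The summed normalized count of the list was 29649 and 26148 in number 2 and 10623 and 9500.1 in number 3. Most of that sum in every library was KRT8, KRT18 and KRT19, so the sum follows these keratins. Besides CDX2, the higher members were TFAP2C, GATA2 and GATA3. TFAP2C was at 86.6 and 122 in number 2 and 397 and 373 in number 3. GATA2 stood at 168 and 148 in number 3 against 45.3 and 37.05 in number 2. GATA3 was low in all libraries, at 15.5 and 8.47 in number 2 and 39.3 and 35.4 in number 3. The lower members included 3 keratins of simple epithelia. KRT8 was at 16392 and 14213 in number 2 and 5805 and 4751 in number 3. KRT18 stood at 1056 and 966 in number 3 against 4919 and 4175 in number 2. KRT19 was at 7182 and 6589.6 in number 2 and 1747 and 1746 in number 3 (log2 difference -1.98, standard error 0.06, adjusted p = 4.15e-13 from limma). Of 12 hypoblast and endoderm genes 2 were higher and 5 lower, against 6.43% and 5.22% of all tested genes. The higher ones were the basement membrane collagens COL4A1, at 6229 and 6347 in number 3 against 2725 and 2581 in number 2, and COL4A2, with a log2 difference of 1.52. Apolipoprotein genes were among the lower ones. APOE was at 8138 and 8065 in number 2 and 3327 and 3274 in number 3. APOA1 stood at 53.7 and 65.05 in number 3 against 529.6 and 404 in number 2. The hypoblast genes GATA4, GATA6 and SOX17 were under the filter and not tested. Each had at most 24 reads in any library, with more in both libraries of number 3 than in those of number 2. In bulk libraries such as these, fewer cells of a type and less RNA per cell cannot be told apart.

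Of 22 tested fibroblast and matrix genes, taken as feeder cell markers, 2 were higher and 1 was lower, shares near the 6.43% and 5.22% of all tested genes, with a median of 0.31. FN1 (fibronectin) was at 6939.9 and 7193 in number 2 and 30829 and 30747 in number 3 (log2 difference 2.12, standard error 0.05, adjusted p = 2.61e-15 from limma), while the collagens COL1A1 and COL1A2 did not pass the threshold. LUM was at 84.5 and 211 in number 2 and 38.3 and 30.6 in number 3. The summed normalized count of the list was 49379 and 47319 in number 2 and 80292 and 76942 in number 3. Most of that difference was FN1, since without it the sum was 42403 and 40111 in number 2 and 49458 and 46195 in number 3. The part of feeder cells in these differences was not tested.

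The 12 genes with the smallest p in each direction, among those with a mean of at least 50 and no overlap, included further genes of adhesion, matrix and the nervous system. TGFBI, a secreted matrix protein, was at 2180.4 and 2244 in number 2 and 13738 and 14474 in number 3 (log2 difference 2.67, standard error 0.06, adjusted p = 2.30e-15 from limma). NRP2, a receptor for semaphorins, was at 693 and 623 in number 2 and 7298 and 7523 in number 3 (log2 difference 3.49, standard error 0.07, adjusted p = 2.30e-15 from limma). IGDCC3 stood at 9941 and 9997 in number 3 against 1443 and 1354 in number 2. These 3 encode proteins of the cell surface or matrix, as do TSPAN13, a tetraspanin, and AJAP1, an adherens junction protein. TSPAN13 was at 1404 and 1526 in number 2 and 11017 and 10231 in number 3. AJAP1 had 5227 and 4848 in number 3 against 547 and 477 in number 2. OLIG3, a transcription factor of the dorsal neural tube, was at 572 and 524 in number 2 and 3413 and 3695 in number 3 (log2 difference 2.70, standard error 0.09, adjusted p = 3.14e-13 from limma). The selection fixed that the numbers did not overlap for these genes.

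Downwards, LCK had the smallest p of all genes. This SRC family kinase of T cells, on chromosome 2 from 121262594 to 121283528, was at 13709.7 and 13902 in number 2 and 910.5 and 919 in number 3 (log2 difference -3.91, standard error 0.06, adjusted p = 5.08e-17 from limma), a 15.1-fold difference. PRPH, a neuronal intermediate filament gene on chromosome 5 from 30519199 to 30522802, was at 3469 and 3201 in number 2 and 26.8 and 22.96 in number 3 (log2 difference -7.01, standard error 0.16, adjusted p = 3.59e-15 from limma). DES, the intermediate filament of muscle, stood at 332 and 254 in number 3 against 6146 and 5417 in number 2 (log2 difference -4.31). All 3 are known for differentiated cells outside the early embryo. HEATR6, on chromosome 19 from 14132719 to 14165335, was at 2484 and 2427 in number 2 and 32.6 and 33.5 in number 3 (log2 difference -6.17). CFB, complement factor B, stood at 1573 and 1849 in number 3 against 8399 and 8051 in number 2. IGFBP2, which binds insulin-like growth factors, was at 66548 and 64302 in number 2 and 26720.4 and 27572 in number 3. SH3BGRL on the X chromosome was singled out after its values were seen, at 1910.4 and 1809 in number 2 and 7.67 and 3.83 in number 3, with a log2 difference of -8.17.

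Genes at 0 in 1 number and with at least 30 reads in each library of the other numbered 6 for number 3 and 7 for number 2. CAVIN3, a component of caveolae, was at 71.1 and 88.9 in number 2 and 0 and 0 in number 3, at least 55.6-fold lower in number 3. RBM46, an RNA-binding protein gene, was at 79.3 and 79.4 in number 2 and 0 and 0 in number 3, at least 55.3-fold lower. The unnamed models ENSBTAG00000049380 and ENSBTAG00000052124 were also at 0 in number 3, with 73.2 and 57.2, and 49.5 and 45.5, in number 2. ENSBTAG00000051401, on chromosome 20 from 8186992 to 8207511, was at 0 in number 2 and at 61.3 and 40.2 in number 3.

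Glycolysis genes were lower in number 3 for 14 of 23 tested and higher for 0, against 5.22% of all genes lower, and 22 of 23 lay below 0. The median log2 difference was -1.06, close to a 2-fold difference, and it was -1.07 in the tifx pair and -1.05 in the LY pair. SLC2A3, a glucose transporter, was at 362306 and 353428 in number 2 and 154821 and 136934 in number 3 (log2 difference -1.30). HK2, which phosphorylates glucose, stood at 6669 and 5899 in number 3 against 13977 and 12449 in number 2. PFKL, at the committing step, was at 22381 and 20259.9 in number 2 and 9526 and 9681 in number 3. Both enzymes of the upper pathway were near 2-fold apart. In the lower pathway, GAPDH was at 211511 and 209199 in number 2 and 91066 and 93127 in number 3 (log2 difference -1.19, standard error 0.04, adjusted p = 3.14e-13 from limma). PGK1 stood at 17642 and 17484 in number 3 against 43549 and 43319.8 in number 2 (log2 difference -1.31, standard error 0.04, adjusted p = 3.86e-13 from limma). ENO1 was at 171650.0 and 167406 in number 2 and 73908 and 71659 in number 3 (log2 difference -1.22, standard error 0.04, adjusted p = 3.50e-13 from limma). For all 3 the tifx and LY libraries of 1 number differed by far less than the numbers did. LDHA, which makes lactate, stood at 30433 and 27945 in number 3 against 64627 and 63084 in number 2. The largest difference was that of SLC16A3, a lactate exporter, at 4250.5 and 4026 in number 2 and 1176 and 1143 in number 3 (log2 difference -1.83). ENO2, the neuronal enolase, was at 1859.9 and 1836 in number 2 and 1980.0 and 1919 in number 3, a log2 difference of 0.08. Under quantile normalization 8 of the 23 were lower, and GAPDH and ENO1 no longer reached 2-fold. HK2 came to -0.99 without the tifx library of number 2 and to -0.98 without the LY library of number 3.

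Hypoxia targets, a list that shares some genes with glycolysis, were lower for 11 of 21 tested and higher for 0, against 5.22% of all tested genes lower, with a median of -1.05 and all 21 below 0. ADM (adrenomedullin) was at 729 and 547 in number 2 and 35.5 and 42.1 in number 3 (log2 difference -4.00). DDIT4, an inhibitor of mTORC1, stood at 2713 and 2296 in number 3 against 14723 and 21374 in number 2. VEGFA, the vascular growth factor, was at 1467 and 2392 in number 2 and 476 and 603 in number 3. ANKRD37 had a log2 difference of -3.64, and the collagen hydroxylase genes P4HA1 and P4HA2 had -1.40 and -1.61. Oxygen in the cultures was not recorded in the labels. For ADM and DDIT4, each library of number 2 was more than 5-fold above each library of number 3.

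Genes of the integrated stress response and amino acid supply were lower in number 3 for 16 of 27 tested and higher for 0. Of all tested genes 5.22% were lower. The filter kept FGF21, a member of the list, only through its level in number 2, so this count is a description. At a minimum mean of 50, 13 of 24 were lower and 0 were higher. The median of the list was -1.09. The pairs were unequal here, with a median of -0.78 in the tifx pair and -1.44 in the LY pair. The LY library of number 2 was the highest of the 4 libraries for 26 of the 27 genes. ATF4, the central factor, was at 7155 and 15342 in number 2 and 4483 and 4312 in number 3 (log2 difference -1.25). CHAC1, which degrades glutathione, was at 476 and 2520.4 in number 2 and 41.2 and 55.5 in number 3 (log2 difference -4.49, standard error 0.46, adjusted p = 5.66e-07 from limma). TRIB3, a pseudokinase that dampens the response, stood at 23.00 and 22.96 in number 3 against 189.6 and 871 in number 2. In all 3 the LY library of number 2 was more than 2-fold above its tifx library. STC2, a secreted glycoprotein on chromosome 20, was at 3335 and 5534 in number 2 and 174 and 181 in number 3 (log2 difference -4.59, standard error 0.16, adjusted p = 8.37e-13 from limma).

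Within number 2, LY exceeded tifx by a median of 0.73 on the log2 scale over these 27 genes, and by at least 2-fold for 8 of them. Within number 3, the median was -0.02 and 0 of 27 reached 2-fold. Over all tested genes the medians of LY minus tifx were -0.007 and -0.003, and 320 and 277 of 16012 reached 2-fold upwards. With 1 library per treatment in each number, this difference in the response to LY could not be tested. Without the LY library of number 2, 7 of 26 genes were lower, with a median of -0.76. PSAT1, of serine synthesis, was at 774 and 1983 in number 2 and 439 and 517 in number 3. SESN2, an inhibitor of mTORC1, stood at 233 and 265 in number 3 against 858 and 1986 in number 2. FGF21, a secreted factor, was at 20.6 and 87.9 in number 2 and 1.92 and 1.91 in number 3. Each was highest in the LY library of number 2 and level within number 3. PHGDH, the first enzyme of serine synthesis, stood at 5489 and 5344 in number 3 against 10253 and 12975 in number 2. For PHGDH, as for PSAT1, SESN2 and FGF21, the tifx library of number 2 also lay above that of number 3. Without the LY library of number 2, ATF4, PSAT1 and PHGDH came to -0.70, -0.70 and -0.92 and did not pass the threshold.

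**Figure D3:**
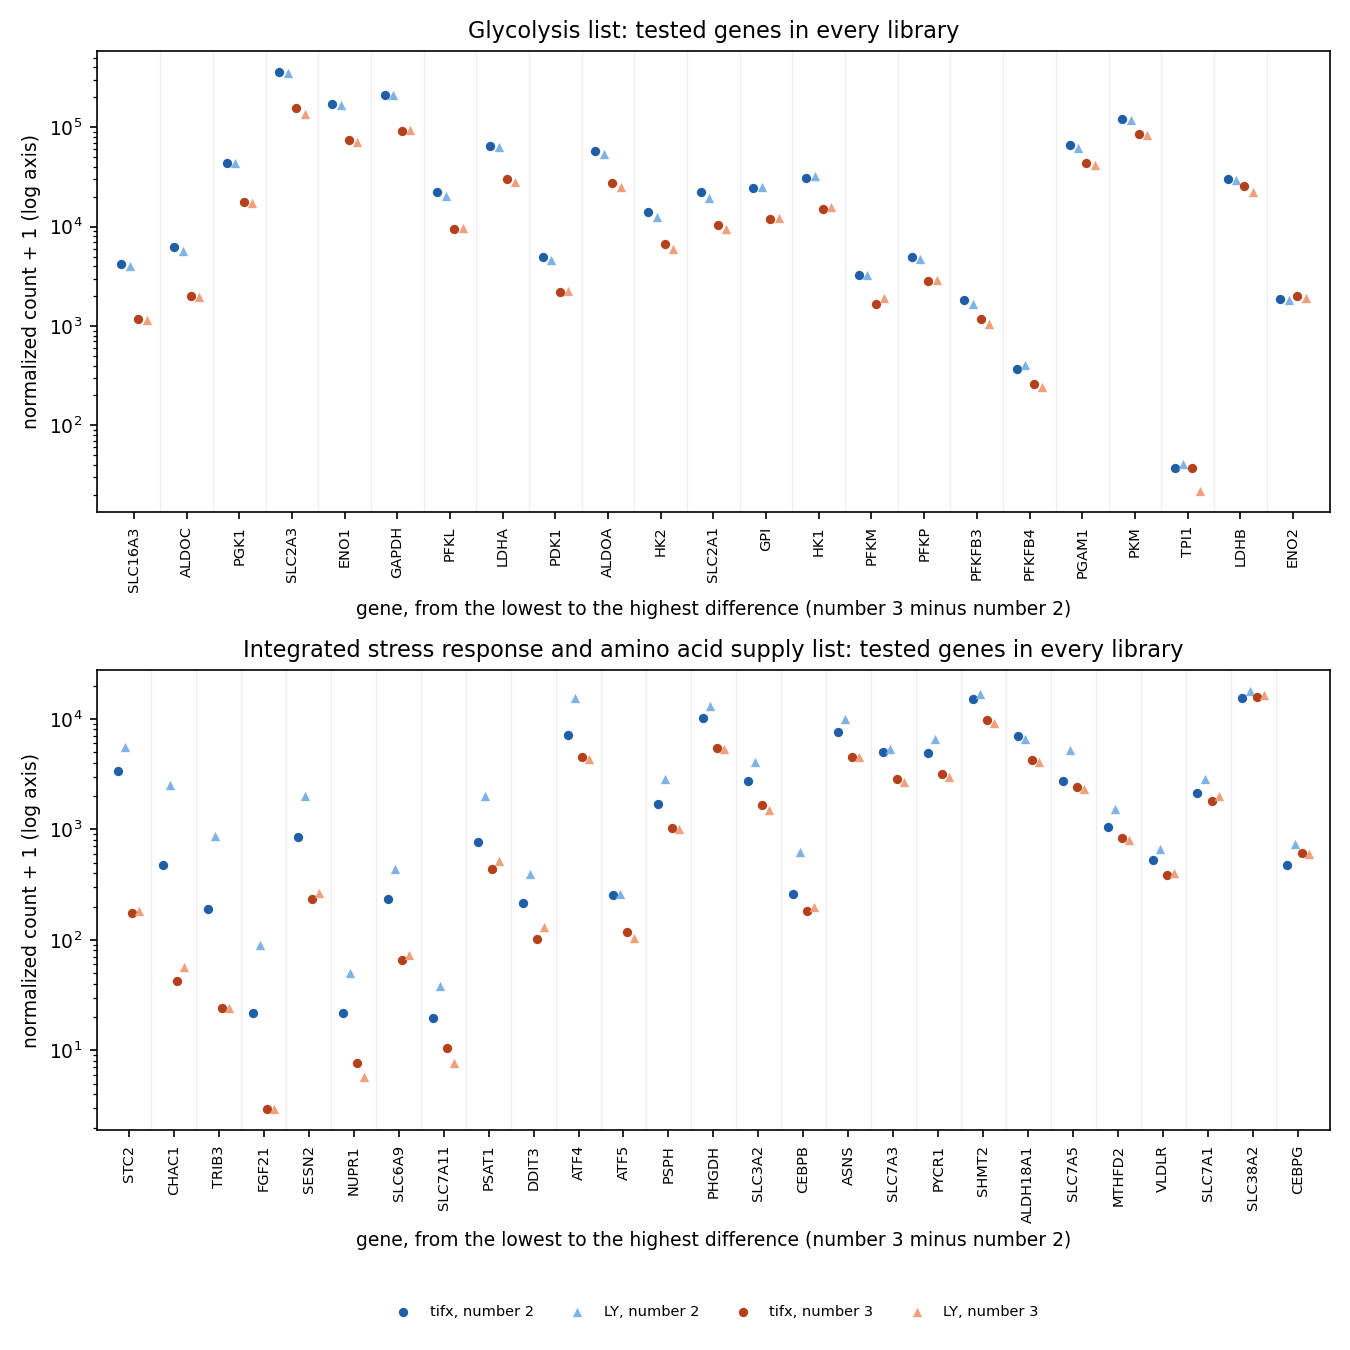
Normalized count plus 1 (log axis) of the 23 tested glycolysis genes (top) and the 27 tested genes of the integrated stress response and amino acid supply list (bottom) in each library. Blue marks number 2, orange marks number 3, circles are tifx and triangles are LY. In the top panel the libraries of a number lie together, and in the bottom panel the LY library of number 2 is the highest for 26 of 27 genes.

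Genes of mitochondrial metabolism showed small differences in 1 direction for nuclear genes and in the other for mitochondrial genes. All 21 tested genes of the TCA cycle lay below 0 (median -0.44), 18 with an adjusted p under 0.05, and 0 reached 2-fold. Over all tested genes 46.6% had an adjusted p under 0.05, in either direction. Of 68 nuclear genes of oxidative phosphorylation 67 lay below 0 (median -0.38), 57 had an adjusted p under 0.05, and only NDUFS4, on chromosome 20, passed the threshold, at 4132 and 4302 in number 2 and 2038 and 2066 in number 3. NDUFS4 came to -0.99 with reads on genes as library size and to -0.97 with mitochondrial genes left out. Of 13 mitochondrially encoded genes 12 lay above 0 (median 0.48). COX1, a subunit of complex IV, was at 192520.0 and 210568 in number 2 and 480965 and 505397 in number 3 (log2 difference 1.29, standard error 0.04, adjusted p = 6.71e-13 from limma). ND5, of complex I, stood at 85678 and 85791 in number 3 against 48049.5 and 53839 in number 2. ND2, of the same complex, was the 1 gene below 0, at 79008 and 79799 in number 2 and 75654 and 72285 in number 3. Mitochondrially encoded genes took 2.41% and 2.59% of the reads in number 2 and 4.09% and 4.18% in number 3.

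Other housekeeping lists were also slightly below 0. The medians were -0.37 for 32 proteasome genes, -0.44 for 20 cytosolic aminoacyl-tRNA synthetases, -0.15 for 75 ribosomal protein genes, -0.27 for 25 heat shock and ER chaperones and -0.48 for 28 antioxidant and glutathione genes. In the proteasome and synthetase lists every gene was below 0 and 0 passed the threshold. The LY library of number 2 was the highest for 18 of 20 synthetases, 26 of 32 proteasome genes and 21 of 25 chaperones, against 4274 of all 16012 tested genes. Without the tifx library of number 2, 3 synthetases were lower. HERPUD1, of the ER stress response, was lower at 1757 and 3213 in number 2 and 719 and 666 in number 3. HMOX1, heme oxygenase, was lower at 200.3 and 266 in number 3 against 727 and 764 in number 2. Composition moved with the number as well. Over 5 classes of genes by length, of like size, the median difference ran from -0.10 (shortest) to 0.17 (longest), and over 5 classes by mean count it ran from 0.13 (lowest) to -0.05 (highest). Ribosomal protein genes took 5.88% and 6.03% of the reads in number 2 and 5.60% and 5.45% in number 3. The 161 tested snoRNAs had a median of 0.82, with 32 higher and 1 lower, against 6.43% and 5.22% of all tested genes. The part of these shifts in the differences of the lists was not tested.

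In lipid metabolism, 23 of 24 tested genes of cholesterol synthesis and uptake lay below 0, with a median of -0.74. The threshold was passed downwards by 3 and upwards by 1, against 5.22% and 6.43% of all tested genes. HMGCS1, an early enzyme of the pathway on chromosome 20 from 31431008 to 31456871, was at 80987 and 81096 in number 2 and 26948 and 26285 in number 3 (log2 difference -1.61, standard error 0.04, adjusted p = 1.57e-14 from limma). FDPS, further along the pathway, stood at 6431 and 6548 in number 3 against 15276 and 14444 in number 2. The exception was STARD4, a cholesterol carrier, at 4.12 and 12.7 in number 2 and 38.3 and 38.3 in number 3. Of 19 tested genes of fatty acid synthesis and lipid droplets 17 lay below 0, with a median of -0.33. The threshold was passed upwards by 1 and downwards by 1, near the 6.43% and 5.22% of all tested genes. CPT1A, the entry enzyme of mitochondrial fatty acid oxidation, was higher at 195 and 342 in number 2 and 562 and 782 in number 3. It came to 0.95 without the tifx library of number 2. PLIN2, a lipid droplet coat protein, was lower at 576 and 599 in number 3 against 1268 and 1304 in number 2.

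**Figure D4:**
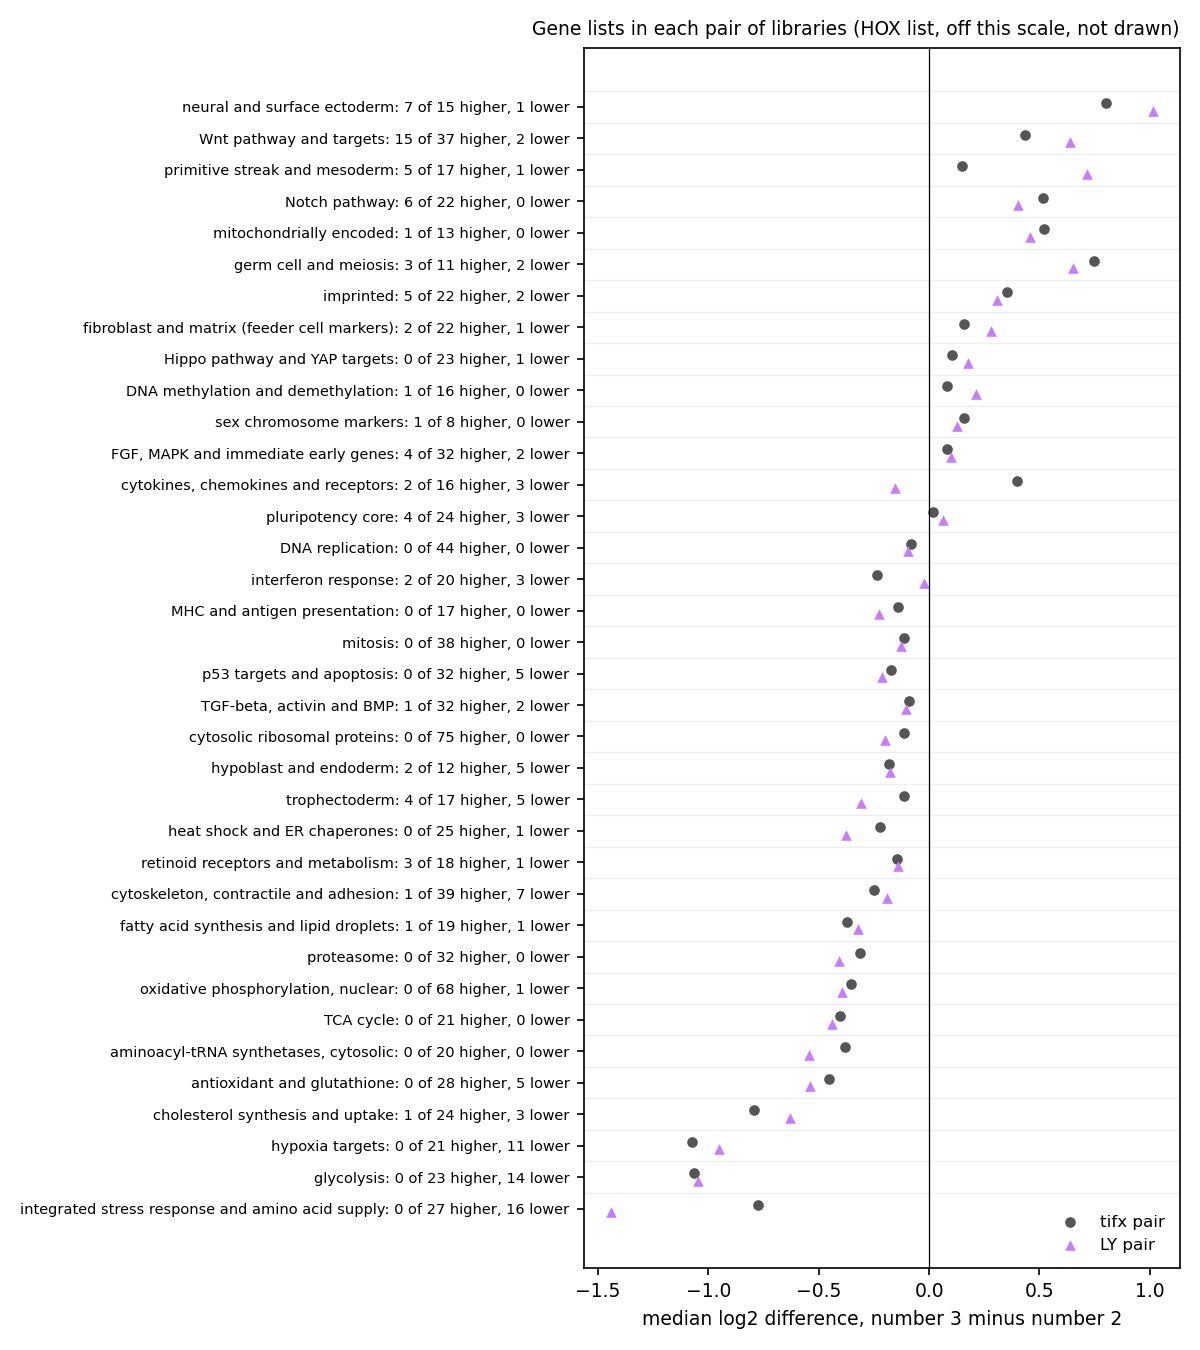
Median log2 difference between number 3 and number 2 over the tested genes of each list, in the tifx pair (circles) and the LY pair (triangles), with the number of genes past the threshold beside each list name. Lists with at least 8 tested genes are shown except HOX, whose median is 5.71. The integrated stress response, glycolysis and hypoxia lists have the lowest medians, and the cytokine list has medians on both sides of 0.

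Other signalling lists held fewer calls. In the Notch pathway 6 of 22 tested genes were higher and 0 lower (median 0.50), against 6.43% and 5.22% of all tested genes. The receptor gene NOTCH1 was at 4536 and 3451 in number 2 and 9234 and 8516 in number 3. The ligand gene JAG1 stood at 4397 and 4005 in number 3 against 1856 and 1529 in number 2. Another ligand gene, DLL1, was at 48.4 and 32.8 in number 2 and 139.9 and 72.7 in number 3. NOTCH1 came to 0.97 without the LY library of number 2, and DLL1 to 0.85 without the tifx library of number 3, where 4 genes were higher and 1 lower. Of 32 FGF, MAPK and immediate early genes 4 were higher and 2 lower, against the same 6.43% and 5.22%. Immediate early genes, which FGF and MAPK signals induce, were among the higher ones. FOS was at 228 and 216 in number 2 and 901 and 1016 in number 3. EGR1 stood at 1209 and 1361 in number 3 against 343 and 286 in number 2. The receptor gene FGFR4 was lower, at 258 and 288 in number 2 and 69.96 and 80.4 in number 3. Of 32 TGF-beta, activin and BMP genes GREM1 was higher and 2 were lower, INHBE and GDF15, which is near the 6.43% and 5.22% of all tested genes. INHBE was at 76.3 and 469 in number 2 and 14.4 and 3.83 in number 3. GDF15 stood at 0 and 7.65 in number 3 against 6.18 and 44.5 in number 2, and without the tifx library of number 3 it did not pass the threshold (-1.06). INHBE and GDF15 were highest in the LY library of number 2, as the stress response genes were. Of 23 Hippo pathway genes VGLL1 alone passed the threshold, at 456 and 312 in number 2 and 34.5 and 60.3 in number 3.

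Retinoid genes were examined because LY inhibits a retinoic acid receptor. Of 18 tested, 3 were higher and 1 was lower, against 6.43% and 5.22% of all tested genes, while 11 lay below 0 and the median was -0.27. RARG, the target of LY, was at 1852 and 1349 in number 2 and 1131 and 997 in number 3 (log2 difference -0.57, adjusted p = 8.14e-04 from limma). RARB, itself a known target of retinoic acid, was at 25.8 and 40.2 in number 2 and 141 and 147 in number 3 (log2 difference 2.13). RDH10, which oxidizes retinol, stood at 592 and 571 in number 3 against 243 and 239 in number 2. ALDH1A1, which makes retinoic acid, was at 63.9 and 64.6 in number 2 and 173 and 191 in number 3. CYP26B1, which degrades retinoic acid, was at 1311 and 1160.2 in number 2 and 480.1 and 377 in number 3 (log2 difference -1.53). The numbers did not overlap for 16 of the 18 retinoid genes, against 73.8% of all tested genes.

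Imprinted genes were higher for 5 of 22 tested and lower for 2, against 6.43% and 5.22% of all tested genes. PEG3, a paternally expressed zinc finger gene on chromosome 18 from 64099930 to 64118980, was at 1252 and 1445 in number 2 and 8088 and 8837 in number 3 (log2 difference 2.65, standard error 0.07, adjusted p = 5.66e-14 from limma). MEST stood at 4235 and 2604 in number 3 against 548 and 411 in number 2. NNAT was at 27543 and 26924 in number 2 and 66233 and 62268 in number 3. All 3 are expressed from the paternal copy, as is DLK1, which was lower, at 320.5 and 312 in number 2 and 105 and 75.6 in number 3. Among DNA methylation genes TET3 alone passed the threshold, at 512 and 455 in number 2 and 884 and 1072 in number 3. DNMT3B stood at 39351 and 37092 in number 3 against 48729.5 and 44823 in number 2 (log2 difference -0.29), which did not reach 2-fold. TET3 missed 2-fold under quantile normalization (0.99) and without the LY library of number 2 (0.93) or of number 3 (0.87).

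Of 8 tested X-linked genes on the sex chromosome list DDX3X alone passed the threshold, at 11638 and 10816 in number 2 and 26714 and 25619.9 in number 3. KDM5C stood at 6587 and 6557 in number 3 against 6966 and 6863 in number 2. USP9X was at 7592 and 6979 in number 2 and 7447 and 7194 in number 3. In the germ cell list 3 of 11 were higher and 2 lower, against 6.43% and 5.22% of all tested genes. PRDM1, a transcriptional repressor on this list, was at 153 and 137 in number 2 and 1102 and 967 in number 3. Without the LY library of number 3 the list had 1 higher and 1 lower, and without the tifx library of number 2 it had 2 higher and 0 lower. MAGED4 did not pass the threshold between the numbers (adjusted p = 0.313 from limma), at 64.9 and 458 in number 2 and 114 and 991 in number 3, and both LY values lay above both tifx values.

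Proliferation genes stood close between the numbers. Of 44 DNA replication genes and 38 mitosis genes 0 passed the threshold, and their medians were -0.08 and -0.12. By the count at an adjusted p under 0.05, 22 and 21 of them differed, by less than 2-fold, which is close to the 46.6% of all tested genes. MKI67 was at 16263 and 15259 in number 2 and 30621 and 31844 in number 3 (log2 difference 0.99), and it passed 2-fold under 6 of the 15 alternatives. Of 32 p53 targets and apoptosis genes 5 were lower and 0 higher, against 5.22% and 6.43% of all tested genes. Among the lower ones was CDKN1A, a cell cycle inhibitor, at 976 and 1412 in number 2 and 291 and 354 in number 3. SFN, another p53 target, stood at 37.4 and 43.05 in number 3 against 167 and 175 in number 2. In the interferon list 2 of 20 were higher and 3 lower, against 6.43% and 5.22% of all tested genes, and in antigen presentation 0 of 17 passed. Of 39 cytoskeletal, contractile and adhesion genes 7 were lower and 1 higher, against 5.22% and 6.43% of all tested genes. MYL9, a myosin light chain, was at 127 and 139 in number 2 and 0.958 and 1.91 in number 3. CAVIN1, a partner of CAVIN3 in caveolae, stood at 144 and 209 in number 3 against 586 and 671 in number 2.

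Genes on chromosome 20 were shifted as a whole. The median over its 243 tested genes was -0.43 on the log2 scale, and it was -0.42 in the tifx pair and -0.42 in the LY pair. Over the other 28 autosomes and X the medians ran from -0.08 (X) to 0.12 (chromosome 24). On chromosome 20, 73.3% of genes lay below 0, against 40.6% to 55.9% on the others, and 132 genes had an adjusted p under 0.05 below 0 while 30 had one above 0. Genes past the threshold numbered 26 lower and 9 higher, that is, most of the shift was below 2-fold.

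The shift ran along the chromosome. When the tested genes of each chromosome were cut into 6 blocks of like number in order of position, the blocks of chromosome 20 had medians from -0.59 to -0.22, and all 6 lay below every one of the 174 blocks of the other chromosomes (-0.21 to 0.35). The shift was smallest in the last block of chromosome 20, with a median of -0.22 and 60% of genes below 0. Without the genes past the threshold the median of chromosome 20 was -0.40, against -0.01 elsewhere. STC2, HMGCS1 and NDUFS4, named above, lie on chromosome 20, as does AMACR, a racemase of fatty acid breakdown that was picked out after its values were seen, at 1674 and 1900.1 in number 2 and 369 and 364 in number 3. Some genes of this chromosome went the other way, among them TERT. MAP1B, a neuronal microtubule protein gene, stood at 12037 and 12171 in number 3 against 6023 and 5291 in number 2. IRX1, a homeobox gene, was at 245 and 177 in number 2 and 533 and 431 in number 3, and came to 0.96 without the LY library of number 2. Chromosome copy number was not measured here.

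**Figure D5:**
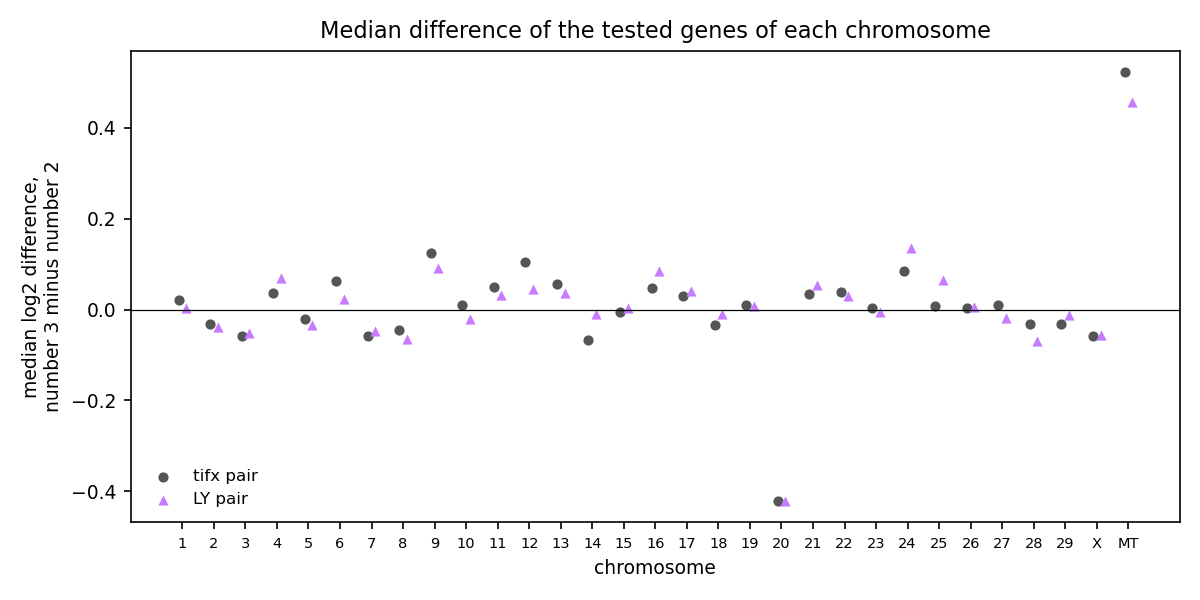
Median log2 difference between number 3 and number 2 over the tested genes of each chromosome, in the tifx pair (circles) and the LY pair (triangles). Chromosome 20 lies at -0.42 in both pairs, the mitochondrial genome (MT) at 0.52 and 0.46, and the other chromosomes lie near 0.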

How the data were processed

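RNA of 4 bESC libraries was sequenced after poly-T selection and random-hexamer cDNA synthesis. Per the labels, the authors' processing notes name HISAT2 2.0.5, featureCounts 1.5.0-p3, StringTie 1.3.3b and DESeq2 1.20.0, and the genome build is not given in the sources used here. The deposited table is named as normalized counts, but its values are FPKM, set by the authors from gene length and library size. It also holds fold changes and p-values of the authors' comparison of LY with tifx, which were not used.

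FPKM times gene length fell on whole multiples of 1 step per library for 100% of values within 0.02 reads. The recovered reads of each library were scaled from the library size behind its FPKM to a common size of 30547774, the geometric mean. Genes with a mean of at least 10 (16012 of 28303) were fitted in R 4.3.3 with limma 3.58.1 (lmFit, eBayes with a trend) on log2(normalized count + 1), number 3 against number 2, with 2 residual degrees of freedom per gene and a spread shared across genes. A log2 difference on this scale understates the change of low genes. Calls used an unadjusted p under 0.05 and a log2 difference beyond 1, and, separately, p adjusted over the tested genes by Benjamini-Hochberg. Gene lists (38, 1037 of 1148 entries found) were described by counts and medians, without a set test. Members, lists and the comparison were chosen with earlier results of these data known. Named genes were the 12 with the smallest p in each direction (mean of at least 50, no overlap), up to 5 genes at 0 in 1 number, list members past the threshold or at the ends of their list, and POU5F1, NANOG, RARG and MAGED4. MAGED4 was taken from the unnamed model whose description names it. Some genes that this rule names are not reported here.

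On simulated libraries with 200 genes changed at a log2 difference of 2 among 15922, 100% passed the threshold and 4.87% of unchanged genes had a p under 0.05. The changed genes had a mean of at least 50, all genes shared 1 dispersion (0.00245), and no LY effect was simulated. Changes of low genes, smaller changes and genes that LY changes were therefore not covered. The number was the contrast itself, and treatment as a term was an alternative. Other alternatives were pseudocounts of 0.5 and 5, filters, TMM factors, quantile normalization, reads on genes as library size, voom weights, mitochondrial genes left out, each library left out and, chosen after seeing the data, chromosome 20 genes left out. Tables and plots used Python 3.11.15, numpy 2.4.6, pandas 2.3.3 and matplotlib 3.10.9. The libraries carry no molecular identifiers.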

Additional observations from a re-analysis of the deposited data

Results flagged for a closer look

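The list of cytokines, chemokines and receptors (16 tested genes) had a median log2 difference of 0.399 in the tifx pair and -0.154 in the LY pair, so the pairs lay on opposite sides of 0. This difference between the pairs was not tested, since each pair holds 1 library per number. Within the list 2 genes were higher in number 3 and 3 were lower, against 6.43% and 5.22% of all tested genes. Over all 16 genes the median was 0.07. CXCL5, a neutrophil chemokine, was at 246 and 189 in number 2 and 5.75 and 3.83 in number 3, and IL6R was at 576 and 519.8 in number 2 and 209.9 and 166 in number 3, with the same direction in both pairs. CSF1, at 40.2 and 94.2 in number 2 and 67.1 and 65.05 in number 3, and LIF, at 12.4 and 29.6 in number 2 and 18.2 and 13.4 in number 3, lay above 0 in the tifx pair and below 0 in the LY pair.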

How the results depend on the processing

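The 1030 higher and 836 lower genes stayed within 1.5 times of these counts under the alternatives except 1. With the minimum mean raised to 50, 655 genes were higher and 532 lower among 13453 tested, since fewer genes were tested. Without a filter 1345 were higher and 1013 lower, with quantile normalization 927 and 911, with mitochondrial genes left out 1205 and 753, and with chromosome 20 genes left out 1104 and 768. Leaving out 1 library gave 955 to 1160 higher, 758 to 889 lower and 5489 to 6178 genes with an adjusted p under 0.05. No paired analysis was possible by replicate number, because the number is itself the contrast compared. Paired by treatment instead, with treatment as a term, 1049 were higher, 844 lower and 8151 had an adjusted p under 0.05. Scaling moved the median of all genes by at most 0.07. POU5F1 turned from -0.16 to 0.0021 under quantile normalization, where GAPDH and ENO1 came to -0.77 and -0.81. MAGED4 turned from 0.96 to -0.44 without the tifx library of number 2 and to -0.60 without the LY library of number 3, and came to 2.51 without the tifx library of number 3. Of the 145 genes named in the text that passed the threshold, 18 did not pass it under at least 1 alternative, and none of the 18 changed direction. GDF15 also missed the threshold without a filter. Being left untested, as low genes were at a minimum mean of 50, was not counted as a failure to pass. Besides POU5F1 and MAGED4, the direction turned for 4 genes with small differences. ND2 came to 0.045 under quantile normalization. Leaving out 1 library gave -0.51 to 0.70 for CSF1, -0.88 to 0.32 for LIF and -0.053 to 0.069 for USP9X. Under the alternatives that kept every library, all tested HOX genes were higher, with a median of 5.41 to 5.99. At a minimum mean of 50 only 29 HOX genes were tested. Under the same alternatives glycolysis genes were lower in 8 to 14, hypoxia targets in 9 to 11 and integrated stress response genes in 13 to 16. With each library left out as well, the median ran from -1.12 to -0.93 for hypoxia targets. For integrated stress response genes it ran from -1.37 to -0.76. With 2 libraries per number, each of which differs in treatment, small differences of low genes are limited by depth and by the spread that LY adds.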

Other observations

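Of the 1030 genes higher in number 3, 258 carried no gene name, and of the 836 lower genes 126 carried none. Long noncoding RNAs were higher for 45 of 373 tested and lower for 19 (median 0.19), and miRNA genes were higher for 7 of 41 and lower for 3 (median 0.52). Processed pseudogenes were lower for 3 of 22 and higher for 0 (median -0.27). Over all tested genes 6.43% were higher and 5.22% lower. Protein-coding genes had 846 higher and 766 lower of 14647 tested, with a median of -0.02.

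Further genes of early patterning were looked at after their values were seen. NKX1-2, of the caudal epiblast, was at 883 and 926 in number 2 and 1919 and 2303 in number 3. GBX2, a homeobox gene, stood at 2938 and 3246 in number 3 against 1225 and 1315 in number 2. FGF17 was at 4.12 and 4.23 in number 2 and 71.9 and 95.7 in number 3. HES3, a Hes family repressor gene, had 845 and 997 in number 3 against 144 and 130.2 in number 2. Each was higher in number 3 past the threshold. PTGR2, a prostaglandin reductase, was lower at 1183 and 1101 in number 2 and 25.9 and 11.5 in number 3. PPP1R3C, a glycogen-targeting phosphatase subunit, was lower at 141 and 102 in number 3 against 1018 and 923 in number 2. LIN28B was at 1099 and 1011 in number 2 and 1733 and 1819 in number 3 (log2 difference 0.75), which did not reach 2-fold.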
